A study of Mus musculus with 8 samples.

Results

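The genes described here are the cyclins, the cyclin-dependent kinases and the E2F factors of the mouse molar, with the pocket proteins and DP proteins that bind E2F factors. They were chosen by a rule on gene symbols, which takes every cyclin of family A, B, C, D, E, F, H, K or T, every numbered *Cdk* gene, every numbered *E2f* gene, and *Rb1*, *Rbl1*, *Rbl2*, *Tfdp1* and *Tfdp2*. This gave 46 of the 20926 genes in the table, of which 15 are cyclins, 18 kinases, 8 E2F factors, 3 pocket proteins and 2 DP proteins. RNA-seq was performed on molar mesenchyme from mice at postnatal (PN) day 3, labelled C57BL/6 although the study's methods describe its mice as of mixed background, in 4 libraries from Ezh2fl/fl mice (control) and 4 from Osr2-Cre;Ezh2fl/fl mice (mutant). Both groups carried the floxed *Ezh2* alleles, and the mutants also carried the *Osr2-Cre* driver, which the labels write as Osr2KI-Cre. Ezh2 writes the repressive H3K27me3 mark of Polycomb. By the study's account, recombination is limited to the mesenchymal compartment of the tooth and the surrounding alveolar bone, and not the epithelium. The labels state that epithelial tissue was taken off before RNA isolation, whereas the study's methods speak of molar samples. The sources used here do not state whether a library came from 1 mouse or from pooled mice, so p-values measure the spread between these libraries.

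D-type cyclins with Cdk4 or Cdk6, and then E-type cyclins with Cdk2, phosphorylate the pocket proteins as a cell leaves G1, which frees E2F factors to switch on genes of DNA replication. A-type cyclins act in S phase, and B-type cyclins with Cdk1 drive mitosis. Other cyclins and kinases act mainly on transcription by RNA polymerase II. In the growing tooth, divisions of the mesenchyme supply the cells of the dental papilla, dental follicle and forming root. The comparison addresses whether the transcripts of this machinery differed between molars with and without mesenchymal *Ezh2* before root formation.

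Promoter sequence is shown for the 4 mitotic members, *Ccnb1*, *Ccnb2*, *Ccnf* and *Cdk1*. They were picked because they had the same sign of difference and were lowest in mutant library 3, as described further on. Neither trait was particular to them. Mutant library 3 was the lowest mutant library for 20 of the 44 members tested, and for 29.5% of all genes. *Ccna2*, *Rbl1*, *E2f7* and *Tfdp1* also had a log2 fold change below 0 and were lowest in that library. RefSeq windows on GRCm38.p6, from 250 bases before to 50 bases after a start site, were matched by symbol for 35 of the 46 members, in 41 windows. Capitals mark exact matches, on either strand, to the CCAAT box (letters CCAAT, or ATTGG on the other strand), to the cell cycle homology region CHR (TTTGAA) and to an E2F site (TTTCCCGC, TTTGGCGC, TTTCGCGC or TTTGCCGC), and no marked runs share a base. All 4 genes lie on the minus strand, and each stretch of 150 bases is printed 5′ to 3′ in the direction of transcription and ends before the gene's annotated starts.
*Ccnb1*, chr13:100786571-100786720: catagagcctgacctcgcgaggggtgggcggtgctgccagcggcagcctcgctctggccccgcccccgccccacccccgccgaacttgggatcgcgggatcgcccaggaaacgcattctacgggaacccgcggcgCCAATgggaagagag
*Ccnb2*, chr9:70421555-70421704: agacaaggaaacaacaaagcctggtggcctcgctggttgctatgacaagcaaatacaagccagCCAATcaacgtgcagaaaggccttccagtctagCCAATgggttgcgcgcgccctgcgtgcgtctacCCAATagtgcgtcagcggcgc
*Ccnf*, chr17:24251485-24251634: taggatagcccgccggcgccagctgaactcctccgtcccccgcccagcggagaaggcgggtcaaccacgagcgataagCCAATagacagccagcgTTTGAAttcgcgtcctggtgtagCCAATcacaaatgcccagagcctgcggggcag
*Cdk1*, chr10:69352939-69353088: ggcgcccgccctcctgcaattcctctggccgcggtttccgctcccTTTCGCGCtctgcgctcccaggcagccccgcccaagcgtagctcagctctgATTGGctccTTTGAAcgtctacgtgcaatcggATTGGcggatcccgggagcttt
All 4 windows held at least a pair of CCAAT boxes. So did windows of other members, among them *Ccnc*, *Ccnt2*, *Cdk10*, *Cdk16*, *E2f2*, *E2f3* and *E2f7*. The share of all windows with such a pair was not counted. Neighbouring boxes started 32 bases apart in *Ccnb1*, 33 and 33 in *Ccnb2*, 40 in *Ccnf*, and 128 and 32 in *Cdk1*, counted over the whole window. The windows hold a further box of *Ccnb1* and of *Cdk1* outside the printed stretch. They also hold unprinted CHR matches, at -167 and 5 in *Ccnb2*, -14 in *Ccnf* and -15 in *Cdk1*, counted from the RefSeq start site. The boxes of *E2f7* started at -46 and -14. The CCAAT box was present in 46.3% of the members' windows and in 37.4% of all 32851 windows. CHR was present in 19.5% and 17.9%, and the E2F site in 19.5% and 2.26%. The E2F letters stood in windows of 7 members (*Cdk1*, *Cdk2*, *E2f2*, *E2f3*, *E2f7*, *Rbl1* and *Tfdp1*), whose log2 fold changes lay between -0.19 (*E2f2*) and 0.11 (*Cdk2*). A match describes the letters and not a site in use.

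The deposited values were scaled so that the 75th percentile was nearly equal in every library, with no gene-length factor, and are called normalized values. Estimated depth was 50.4 M to 66.8 M reads in the control and 48.3 M to 68.8 M in the mutant libraries. The labelled tissue is mesenchyme, and all 7 mesenchyme markers were present, with summed values of 430 to 529 in control and 514 to 575 in mutant. *Lhx8* (7.94 to 10.9 in control, 18.0 to 28.1 in mutant) and *Prrx1* (70.9 to 95.6 and 97.8 to 130) did not overlap between groups. The other markers overlapped, and *Barx1*, the largest, ranged from 173 to 213 and from 166 to 184. Despite the label, transcripts of epithelium were abundant in every library. *Krt14*, a basal keratin, ranged from 329 to 938 in control and from 365 to 637 in mutant, and the epithelial adhesion gene *Cdh1* from 206 to 431 and from 199 to 293. The enamel genes *Amelx*, *Ambn* and *Enam*, made by epithelial ameloblasts, set 3 libraries apart: their mean log2(value + 1) was 7.37, 9.37, 12.08 and 13.02 across control libraries 1 to 4, and in mutant libraries 1 to 4 it was 8.07, 7.31, 11.47 and 7.10. The odontoblast gene *Dspp* ranged from 1329 to 2799 in control and from 556 to 2328 in mutant. *Dmp1*, also an odontoblast gene, ranged from 59.1 to 94.6 and from 46.2 to 84.6. Mutant library 3 was the highest mutant library for *Dspp* and the lowest of all 8 for *Dmp1*. Of the bone genes, *Ibsp* ranged from 82.1 to 141 in control and from 331 to 498 in mutant, while *Bglap* and *Sp7* overlapped between groups. Endothelial transcripts (*Pecam1*, *Cdh5*, *Kdr*) summed to 264 to 294 in control and 225 to 248.6 in mutant, and erythroid transcripts were highest in mutant library 3, at 694 against 302 to 433 in the other mutant and 255 to 450 in the control libraries. The part of these cell types in the results was not tested. None of the markers named here was absent. *Ezh2* itself had values of 55.0, 38.3, 39.6 and 39.0 in control and 35.2, 30.1, 23.2 and 36.0 in mutant libraries, with every mutant library below every control library (log2 fold change -0.46, standard error 0.16, limma adjusted p = 0.235). In bulk RNA of this kind, fewer cells of a type and less RNA per cell cannot be told apart.

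No member differed between the genotypes at an adjusted p under 0.05. A fold change here is the mean log2(value + 1) of the mutant minus that of the control group, tested with limma's moderated test. Adjusted p-values are Benjamini-Hochberg values over 14854 genes, those that reached a value of 1 in 4 or more of the 8 libraries. Of the members, 44 were tested, and 0 were called in either direction, where 2.07% of all genes tested were called (1.56% higher and 0.512% lower). At those shares a list of 44 genes may hold none. At an unadjusted p under 0.05, 2 members were higher in the mutant, *Cdk6* and *Ccnd3*, and 0 were lower, where 8.27% of all genes were higher and 4.87% lower. The members' median log2 fold change was 0.0049, with 23 above 0 and 21 below, and that of all genes was 0.013, with 54.1% above 0. Leaving out each library moved the members' median between -0.013 (21 above 0, without mutant library 4) and 0.052 (29 above 0, without mutant library 3).

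The differences were small as well as uncalled. Absolute log2 fold changes were under 0.2 in 40 of the 44 members. The 95% interval included 0 in 42 members, lay within ±0.5 in 38 and within ±1 in all 44. Groups did not overlap in 3 members, *Cdk6*, *Cdk10* and *Cdk20*, each higher in every mutant library, and in 0 members with the mutant lower. Among all genes 5.76% did not overlap with the mutant higher and 2.77% with the mutant lower, so that 3 of 44 is close to the background.

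**Figure D1:**
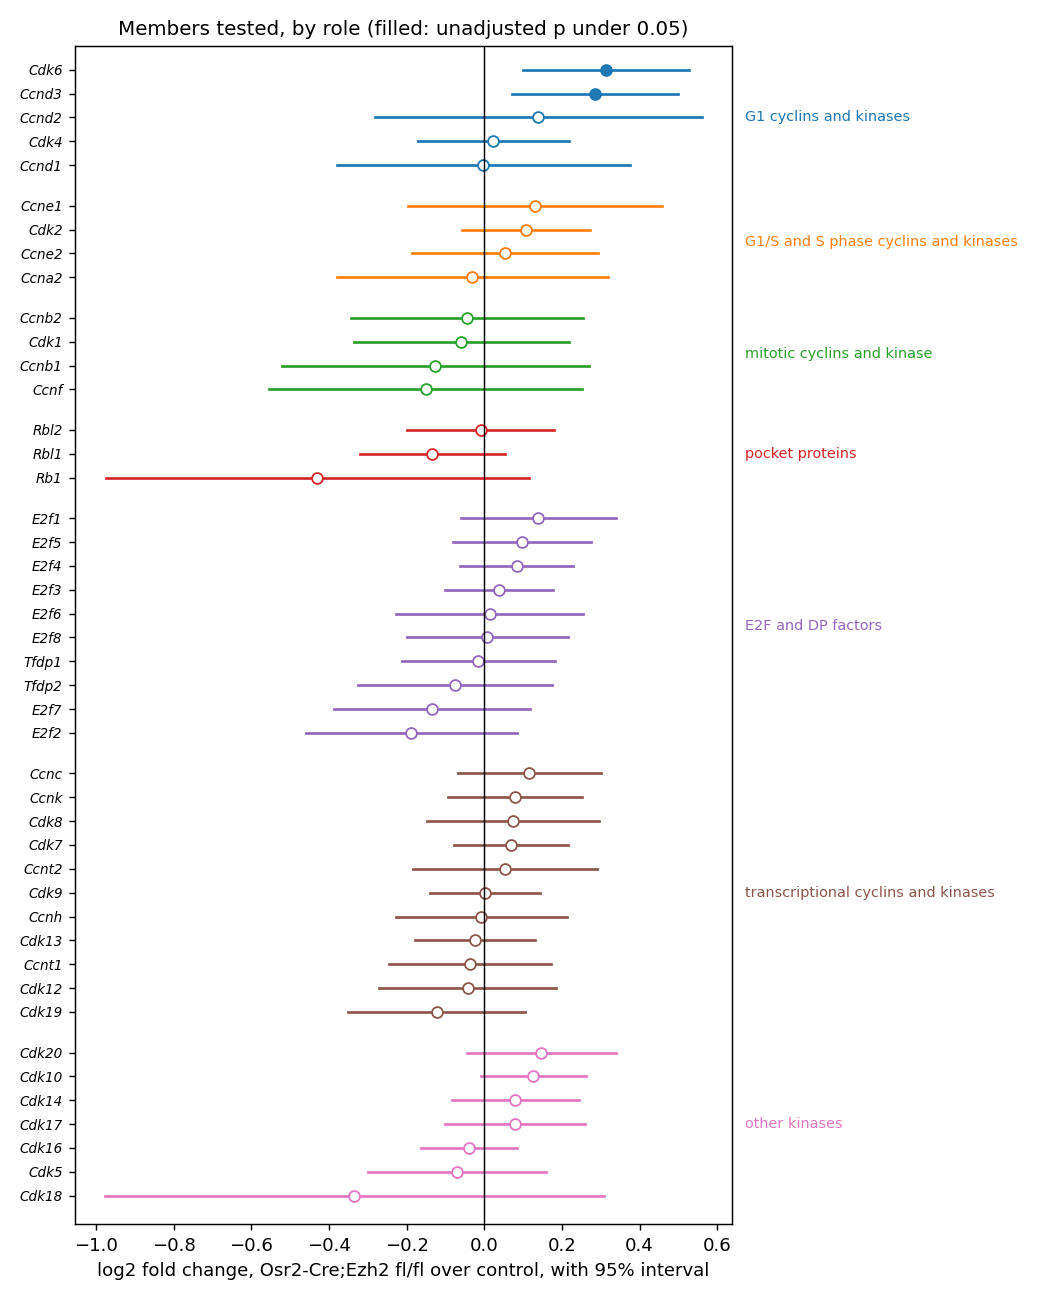
Log2 fold change (mutant over control, horizontal axis) of the 44 members tested, with the 95% interval from limma, grouped by role. Filled points mark *Cdk6* and *Ccnd3*, the 2 members with an unadjusted p under 0.05, and *Rb1* and *Cdk18* have the widest intervals.

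Among the 5 G1 members, the D-type cyclins and the kinases they activate, 4 had a log2 fold change above 0 and 1 below, with a median of 0.14. That median was 0.055 without mutant library 2, 0.063 without mutant library 4, 0.091 without control library 4 and 0.33 without mutant library 3. With the enamel level of each library as a covariate it was 0.013, with 3 above 0 and 2 below. *Cdk6* encodes a G1 kinase partner of D-type cyclins and lies on chromosome 5 (mm10, plus strand, 3341485 to 3531008). From library 1 to library 4, *Cdk6* had values of 21.7, 24.8, 22.9 and 20.9 in control and 32.3, 29.5, 26.5 and 25.2 in mutant, and the same order is kept for every gene below. The lowest mutant library was just above the highest control library. The means were 22.6 ± 1.69 and 28.4 ± 3.21 (SD, n = 4 each), a ratio of 1.26. Its log2 fold change was 0.31 (standard error 0.095, 95% interval 0.099 to 0.53), with an unadjusted p of 0.00886 and an adjusted p of 0.159 in limma. The exact permutation test over the 70 arrangements of the libraries gave p = 0.0286, the smallest it can give. Leaving out each library in turn moved the fold change of *Cdk6* between 0.25 and 0.37, and limma's array weights lowered it to 0.14 (adjusted p = 0.128). GENCODE lists *Gm17590* and *Gm42435* on the opposite strand within the gene, and the use of strand in counting is not given in the sources used here.

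*Ccnd3* encodes cyclin D3 and lies on chromosome 17 (plus strand, 47505051 to 47599691). The *Ccnd3* values were 62.7, 58.2, 58.1 and 56.4 in control and 79.4, 79.6, 59.9 and 70.5 in mutant libraries. Mutant library 3 fell inside the control range, and the other 3 mutant libraries were above it. The means were 58.8 ± 2.69 and 72.3 ± 9.32 (SD, n = 4 each), a ratio of 1.23. Its log2 fold change was 0.28 (95% interval 0.071 to 0.50) with an unadjusted p of 0.0144 and an adjusted p of 0.212 in limma, and p = 0.0571 in the exact permutation test. Without mutant library 3, *Ccnd3* became the only member called, with a log2 fold change of 0.37 and a limma adjusted p of 0.0401. With the enamel level as a covariate it was 0.20 (adjusted p = 0.337).

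The other D-type cyclins and *Cdk4* did not differ beyond their spread. *Ccnd1*, the most abundant D-type cyclin here per kilobase of transcript, had values of 428, 391, 369 and 392 in control and 422, 499, 268 and 427 in mutant libraries. *Ccnd2* had values of 377, 351, 323 and 305 in control and 349, 500, 253 and 436 in mutant libraries. For both cyclins mutant library 2 was the highest of all 8 and mutant library 3 the lowest, so the mutant group enclosed the control group. Log2 fold changes were -0.0021 (95% interval -0.38 to 0.37) for *Ccnd1* and 0.14 (-0.28 to 0.56) for *Ccnd2*, and without mutant library 3 they were 0.18 and 0.33 (limma adjusted p = 0.370 and 0.294). Without mutant library 2 they were -0.12 and -0.0022, and with the enamel covariate -0.17 and -0.073. *Cdk4*, a G1 kinase far above *Cdk6* per kilobase of transcript, had values of 282, 298, 302 and 305 in control and 346, 282, 269 and 314 in mutant libraries. The groups overlapped in full, with a log2 fold change of 0.02 (-0.17 to 0.22).

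The G1/S and S phase members hold *Ccne1*, *Ccne2*, *Cdk2* and *Ccna2*, all tested, and *Ccna1*. The fold changes of the 4 tested were above 0 in 3 and below 0 in 1, with a median of 0.080. That median was 0.029 without mutant library 1 (2 above 0), 0.053 without mutant library 4, 0.128 without mutant library 3 (4 above 0) and 0.019 with the enamel covariate (2 above 0). *Ccne1*, a cyclin E that activates Cdk2 at the G1/S transition, had values of 11.6, 11.4, 11.5 and 10.002 in control and 11.9, 14.1, 8.90 and 14.9 in mutant libraries. *Ccne2*, the other cyclin E, had values of 16.5, 16.7, 17.4 and 17.8 in control and 22.0, 15.3, 17.2 and 17.3 in mutant libraries. Neither cyclin E gene separated the groups: the lowest library for *Ccne1* was mutant library 3, and for *Ccne2* it was mutant library 2.

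*Cdk2*, the kinase of cyclins E and A, had values of 44.7, 40.1, 42.3 and 37.5 in control and 44.8, 44.3, 41.7 and 46.6 in mutant libraries. *Ccna2*, cyclin A2 of S phase and early mitosis, had values of 121, 104, 105 and 87.8 in control and 111, 105, 73.7 and 123 in mutant libraries. Both genes overlapped between groups, with control library 4 the lowest of all for *Cdk2* and mutant library 3 for *Ccna2*. Log2 fold changes were 0.13 for *Ccne1*, 0.053 for *Ccne2*, 0.11 for *Cdk2* and -0.03 for *Ccna2*, with limma adjusted p-values between 0.645 and 0.969. With each library left out they ran from 0.041 (without mutant library 4) to 0.27 (without mutant library 3) for *Ccne1*, from -0.043 (without mutant library 1) to 0.12 (without mutant library 2) for *Ccne2*, from 0.064 (without control library 4) to 0.15 (without control library 1) for *Cdk2*, and from -0.12 (without mutant library 4) to 0.12 (without mutant library 3) for *Ccna2*.

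*Ccna1*, known for its role in the male germ line, did not pass the filter. It had 21 to 36 estimated reads in the control and 31 to 54 in the mutant libraries, or normalized values of 0.382 to 0.636 and 0.607 to 0.743. The groups overlapped slightly, with p = 0.0571 in the exact permutation test.

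**Figure D2:**
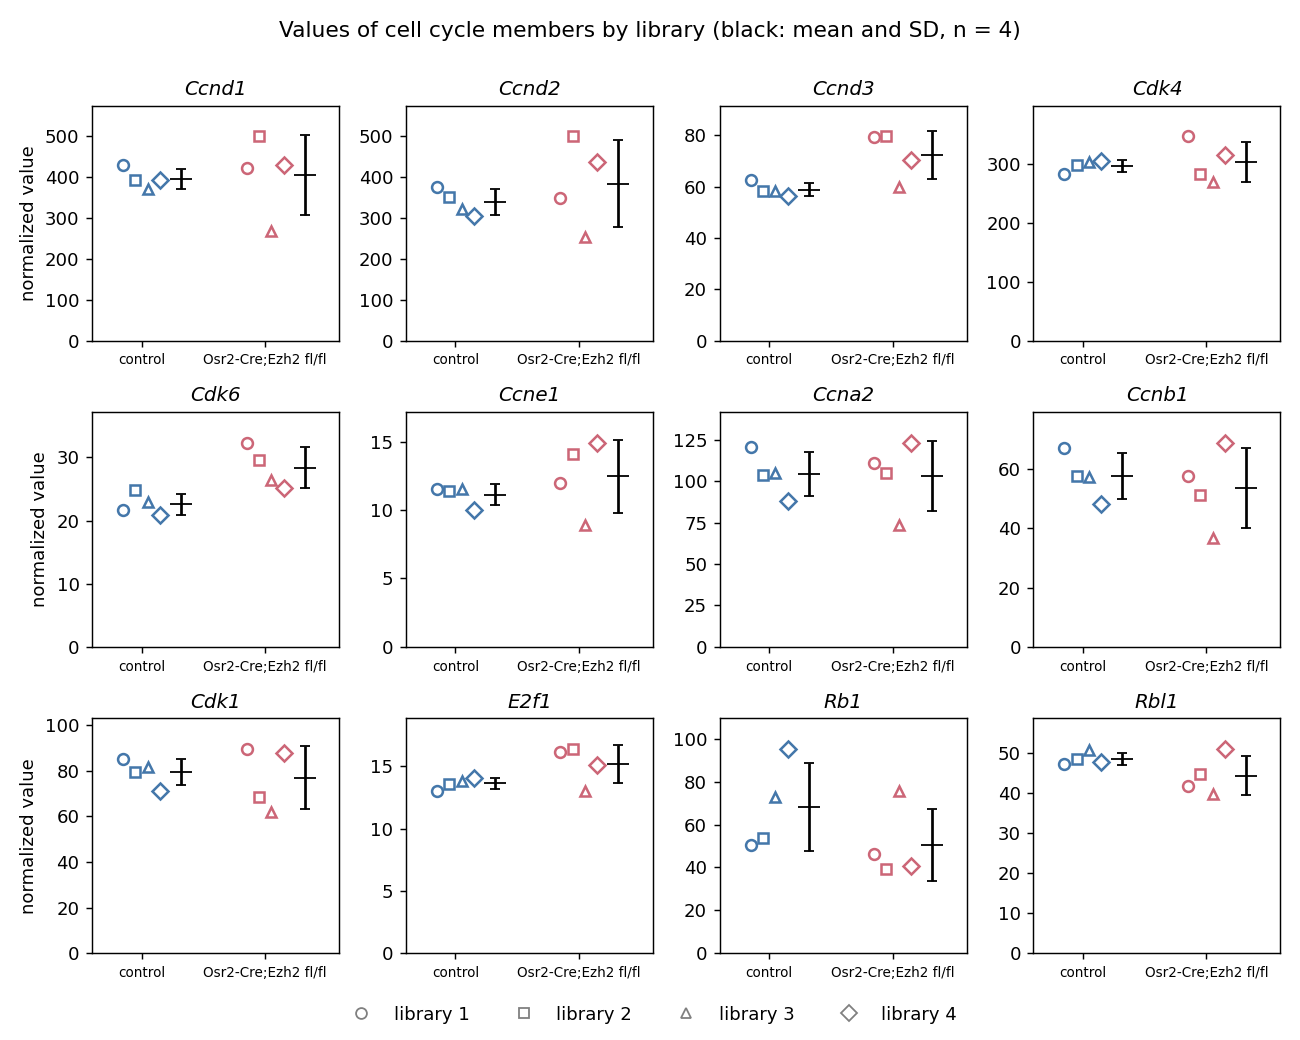
Normalized values (vertical axes, starting at 0) of 12 members in each library, with marker shapes for library numbers and black bars for the mean and SD of 4 libraries. *Cdk6* is the only gene drawn whose groups do not overlap, and mutant library 3 (triangle) is the lowest mutant library for *Ccnd1*, *Ccnd2*, *Ccnd3*, *Cdk4*, *Ccne1*, *Ccna2*, *Ccnb1*, *Cdk1*, *E2f1* and *Rbl1* and the highest for *Rb1*.

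All 4 mitotic members had a log2 fold change below 0, with a median of -0.092, and none was called. Mutant library 3 was the only library whose omission turned that sign. *Ccnb1*, cyclin B1 of the mitotic kinase, had values of 67.3, 57.7, 57.5 and 48.1 in control and 57.8, 51.2, 36.9 and 68.9 in mutant libraries. *Ccnb2*, the other B-type cyclin here, had values of 51.4, 52.3, 47.1 and 41.3 in control and 54.5, 42.5, 37.0 and 53.8 in mutant libraries. *Cdk1*, the kinase of both, had values of 84.9, 79.6, 81.6 and 71.2 in control and 89.5, 68.5, 61.9 and 87.8 in mutant libraries. In all 3 genes mutant library 3 was the lowest library and library 1 or 4 of the mutant group the highest, so the mutant group enclosed the control group. *Ccnf*, a cyclin of the SCF ubiquitin ligase singled out after its values were seen, ranged from 15.1 to 21.9 in control and from 11.1, again in mutant library 3, to 21.1 in mutant libraries.

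The log2 fold changes were -0.13 (95% interval -0.52 to 0.27) for *Ccnb1*, -0.04 for *Ccnb2*, -0.06 for *Cdk1* and -0.15 for *Ccnf*, with limma adjusted p-values from 0.841 to 0.950. Without mutant library 3, 0 of the 4 were below 0 and the values were 0.039, 0.062, 0.038 and 0.018. Leaving out any other library kept 4 of 4 below 0, and the median was -0.19 without mutant library 4, -0.16 without control library 4, -0.15 without mutant library 1 and -0.038 without control library 1. In the 15 mitotic genes of a separate list (among them *Top2a*, *Plk1* and *Aurkb*), 14 were below 0 with a median of -0.15 and 0 were called, and without mutant library 3 3 were below 0 with a median of 0.025. Without control library 1, 10 of the 15 were below 0 with a median of -0.055, and the median was -0.25 without control library 4 and -0.26 without mutant library 4. The control libraries also differed among themselves: *Ccnb1* and *Ccnf* were highest in control library 1, which had the least enamel transcript of its group, and lowest in control library 4, which had the most. With the enamel level as a covariate, the log2 fold changes were -0.33 for *Ccnb1* (unadjusted p = 0.0250, limma adjusted p = 0.260) and -0.37 for *Ccnf* (unadjusted p = 0.0149, limma adjusted p = 0.202). In the same fit 4 of 4 mitotic members were below 0 with a median of -0.26, and 15 of the 15 mitotic genes with a median of -0.37, while 0 were called. The covariate and the omission of mutant library 3 thus moved the mitotic values in opposite directions.

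The 3 pocket proteins, which hold E2F factors in check, all had log2 fold changes below 0, with a median of -0.13, and none was called. The median was -0.20 without mutant library 4 and -0.084 without mutant library 3, and 1 of the 3 was above 0 without mutant library 1 or without control library 1. With array weights 2 of the 3 were above 0, with a median of 0.028. *Rb1*, the retinoblastoma gene, had values of 50.6, 53.8, 72.7 and 95.2 in control and 46.5, 39.4, 75.4 and 40.6 in mutant libraries. The 3 highest were control libraries 3 and 4 and mutant library 3, the same 3 libraries that were highest in enamel transcripts. The means were 68.1 ± 20.5 and 50.5 ± 16.9 (SD, n = 4 each). Between the groups *Rb1* had a log2 fold change of -0.43 (95% interval -0.97 to 0.12, limma adjusted p = 0.531). It ranged from -0.64 without mutant library 3 (adjusted p = 0.199) to -0.26 without control library 4 (adjusted p = 0.861), and was -0.086 with the enamel level as a covariate (adjusted p = 0.710). *Rb1* lies on chromosome 14 (minus strand, 73183673 to 73325822), with *Lpar6* and *Rcbtb2* annotated on the opposite strand.

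*Rbl1* (p107) had values of 47.2, 48.4, 50.7 and 47.7 in control and 41.8, 44.7, 39.7 and 51.0 in mutant libraries. *Rbl2* (p130) had values of 46.4, 44.6, 43.6 and 43.2 in control and 37.6, 48.1, 45.0 and 46.8 in mutant libraries. For *Rbl1*, 3 mutant libraries were below every control library and mutant library 4 was above them all. For *Rbl2* the mutant group enclosed the control group. Log2 fold changes were -0.13 (95% interval -0.32 to 0.053) and -0.0088 (-0.20 to 0.18). With each library left out, *Rbl1* ran from -0.20 to -0.084 and *Rbl2* from -0.049 to 0.067. With array weights they were 0.028 and 0.073.

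**Figure D3:**
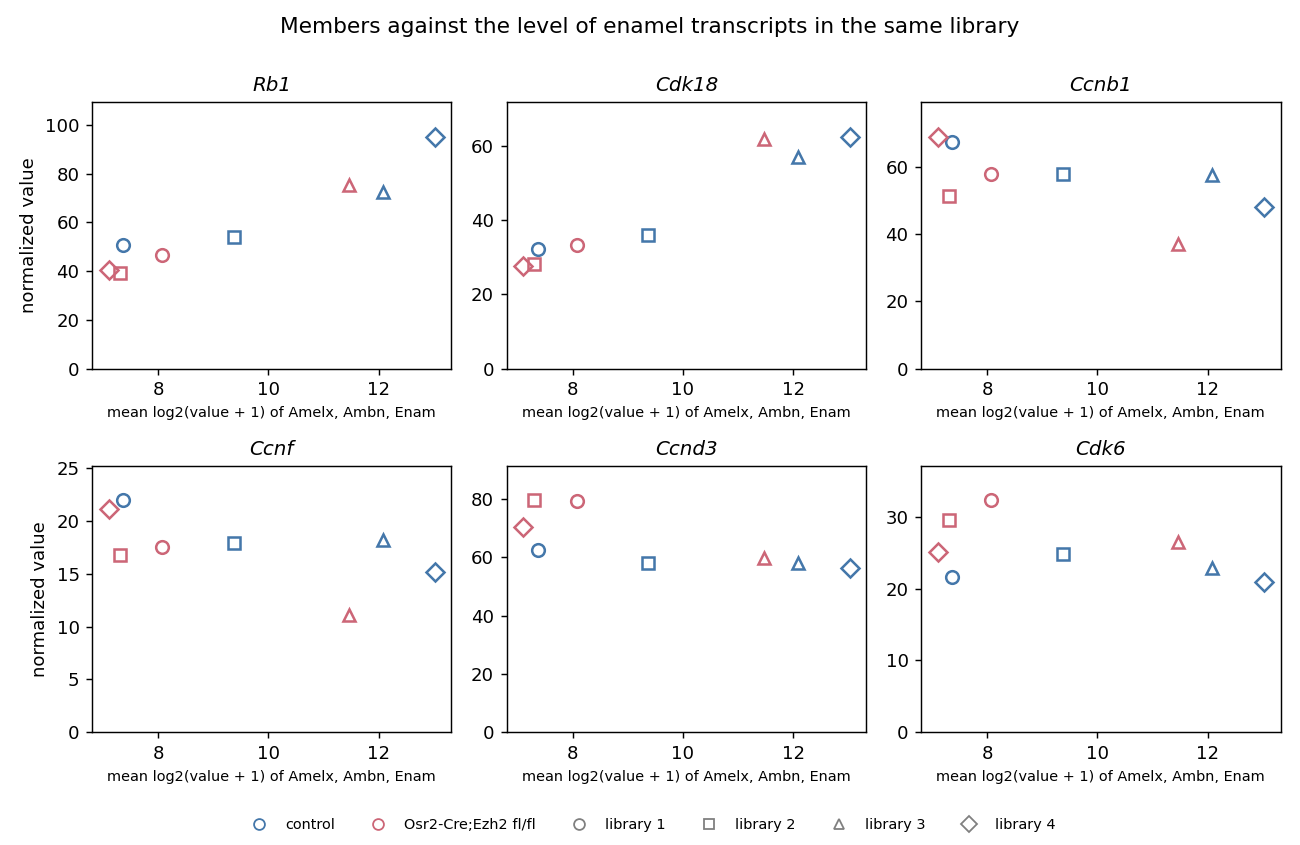
Normalized values of 6 members (vertical axes, starting at 0) against the mean log2(value + 1) of *Amelx*, *Ambn* and *Enam* in the same library (horizontal axes), 8 libraries each. For *Rb1* and *Cdk18* the 3 libraries above 11 on the horizontal axis are the 3 highest, while *Cdk6* is higher in every mutant library than in any control library.

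Of the 10 E2F and DP members, 6 had a log2 fold change above 0 and 4 below, between -0.19 and 0.14 with a median of 0.011. The median had no stable sign: leaving out each library moved it between -0.025 (4 above 0, without mutant library 4) and 0.048 (7 above 0, without mutant library 3). *E2f1*, an activator of replication genes, had values of 13.0, 13.6, 13.9 and 14.1 in control and 16.1, 16.4, 13.1 and 15.1 in mutant libraries. *E2f3*, another activator, had values of 40.7, 40.1, 40.0 and 43.0 in control and 43.7, 40.3, 43.2 and 41.2 in mutant libraries. For *E2f1* mutant libraries 1, 2 and 4 were above every control library and mutant library 3 lay at the bottom of the control range, whereas *E2f3* overlapped throughout. The log2 fold change of *E2f1* was 0.14 (95% interval -0.061 to 0.34), and 0.21 without mutant library 3 (limma adjusted p = 0.222).

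*E2f4*, which mainly represses together with *Rbl1* or *Rbl2*, had values of 37.5, 37.1, 37.9 and 37.8 in control and 40.5, 41.1, 36.5 and 41.6 in mutant libraries. *E2f6*, which represses without pocket proteins, had values of 29.3, 24.1, 26.2 and 24.9 in control and 26.7, 28.9, 21.6 and 28.7 in mutant libraries. Mutant library 3 was the lowest of all 8 for both genes, and the other 3 mutant *E2f4* values were above the whole control range.

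*E2f7*, an atypical repressor, had values of 17.8, 17.4, 16.2 and 16.9 in control and 16.9, 14.0, 13.0 and 18.5 in mutant libraries. *E2f8*, the other atypical repressor, had values of 16.2, 17.2, 17.1 and 14.8 in control and 17.6, 14.3, 16.4 and 17.6 in mutant libraries. Both overlapped, with mutant values on each side of the control range. Their log2 fold changes were -0.13 and 0.0080, next to 0.084 for *E2f4* and 0.014 for *E2f6*. With each library left out, *E2f7* ran from -0.22 to -0.055 and *E2f8* from -0.036 to 0.070. In the same way *E2f4* ran from 0.064 to 0.13 and *E2f6* from -0.030 to 0.11. With array weights *E2f7* was at 0.091. *E2f2* at -0.19 and *E2f5* at 0.097 complete the family, with control values of 10.1 to 13.1 and 14.9 to 15.6 and mutant values of 8.57 to 12.3 and 14.9 to 17.7.

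*Tfdp1*, the main DNA-binding partner of E2F factors, had values of 119, 118, 121 and 116 in control and 120, 123, 97.8 and 130 in mutant libraries. *Tfdp2*, its relative, had values of 51.3, 55.5, 50.9 and 52.6 in control and 44.8, 43.5, 63.2 and 49.9 in mutant libraries. Mutant library 3 was the lowest of all for *Tfdp1* and the highest of all for *Tfdp2*. In the other 3 mutant libraries *Tfdp2* was below every control library, and without library 3 its log2 fold change was -0.19 (limma adjusted p = 0.249) instead of -0.075, while without mutant library 2 it was -0.012.

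The 11 transcriptional members had log2 fold changes between -0.12 (*Cdk19*) and 0.12 (*Ccnc*), with 6 above 0 and 5 below, a median of 0.0018 (-0.0073 to 0.037 with each library left out), and none with an unadjusted p under 0.05. They hold the Mediator kinases *Cdk8* and *Cdk19* with *Ccnc*, the *Cdk7* and *Ccnh* pair of TFIIH, *Cdk9* with *Ccnt1* and *Ccnt2* of P-TEFb, and *Cdk12*, *Cdk13* and *Ccnk*. The 2 Mediator kinases had opposite signs, 0.075 for *Cdk8* and -0.12 for *Cdk19*, and neither interval excluded 0. *Cdk9* was among the least different members, with 51.6 to 55.9 in control and 50.8 to 56.6 in mutant libraries and a log2 fold change of 0.0018 (95% interval -0.14 to 0.14).

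Among the 8 other kinases, 7 were tested, with 4 above 0 and 3 below and a median of 0.079, which was 0.015 without mutant library 3, 0.045 without mutant library 2 and 0.052 without control library 3. *Cdk10* and *Cdk20* are named because their groups did not overlap, a choice made after their values were seen. *Cdk10*, a kinase partner of cyclin M, ranged from 31.9 to 33.2 in control and from 34.3 to 37.3 in mutant libraries, a log2 fold change of 0.13 (95% interval -0.0095 to 0.26, limma adjusted p = 0.433). *Cdk20*, a kinase linked to the primary cilium, ranged from 3.38 to 3.95 and from 4.11 to 4.45, a log2 fold change of 0.15 (-0.044 to 0.34, limma adjusted p = 0.542). In both, the gap between groups was narrow, and the exact permutation p was 0.0286. GENCODE places *Gm20388* and *Gm45842* on the same strand as *Cdk10*, so reads could be shared between them.

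*Cdk18*, a kinase of the PCTAIRE family also chosen after its values were seen, ranged from 32.4 to 62.7 in control and from 27.8 to 62.0 in mutant libraries. As for *Rb1*, control libraries 3 and 4 and mutant library 3 were the 3 highest. Its log2 fold change was -0.33 (95% interval -0.98 to 0.31), which ran from -0.59 without mutant library 3 (limma adjusted p = 0.280) to -0.18 with each library left out and was 0.079 with the enamel level as a covariate (adjusted p = 0.736). *Cdk15* did not pass the filter, with between 42 and 48 estimated reads per control library and between 40 and 74 per mutant library. The remaining kinases, *Cdk5*, *Cdk14*, *Cdk16* and *Cdk17*, had log2 fold changes between -0.071 and 0.080.

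The mutant libraries varied more among themselves than the control libraries did. The SD of log2(value + 1) was larger in the mutant group for 40 of the 44 members tested (90.9%) and for 74.5% of all genes tested. The median SD over members was 0.076 in control and 0.171 in mutant, and over all genes 0.111 and 0.175. Mutant library 3 was the lowest mutant library for 20 of the 44 members, where it was lowest for 29.5% of all genes. Within the control group, library 4 was the lowest for 18 members, where it was lowest for 33.1% of all genes.

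Levels between genes were compared per kilobase of each gene's principal transcript. On that scale *Cdk4* was the highest member (145 ± 5.03 in control and 148 ± 16.9 in mutant, mean and SD, n = 4), followed by *Ccnd1* (106 ± 6.57 and 108 ± 26.0) and *Ccnd2* (53.6 ± 4.96 and 60.7 ± 17.0). *Tfdp1* (47.1 ± 0.865 in control), *Cdk16* (45.8 ± 0.623) and *Ccna2* (35.2 ± 4.52) came next. The neighbours *Ccnd2*, *Tfdp1* and *Cdk16* overlapped in their mutant libraries within 1 SD. *Ccnd3*, at 27.8 ± 1.27 and 34.2 ± 4.41, was the least abundant D-type cyclin in both groups. *Cdk6* stood near the low end at 1.96 ± 0.147 and 2.46 ± 0.278, so that its level remained far below that of *Cdk4* in both groups, and only *Cdk20*, *Cdk15* and *Ccna1* were lower in the control group. Of the E2F factors, *E2f4* was the highest (18.9 ± 0.173 in control) and *E2f2* the lowest (2.45 ± 0.268).

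**Figure D4:**
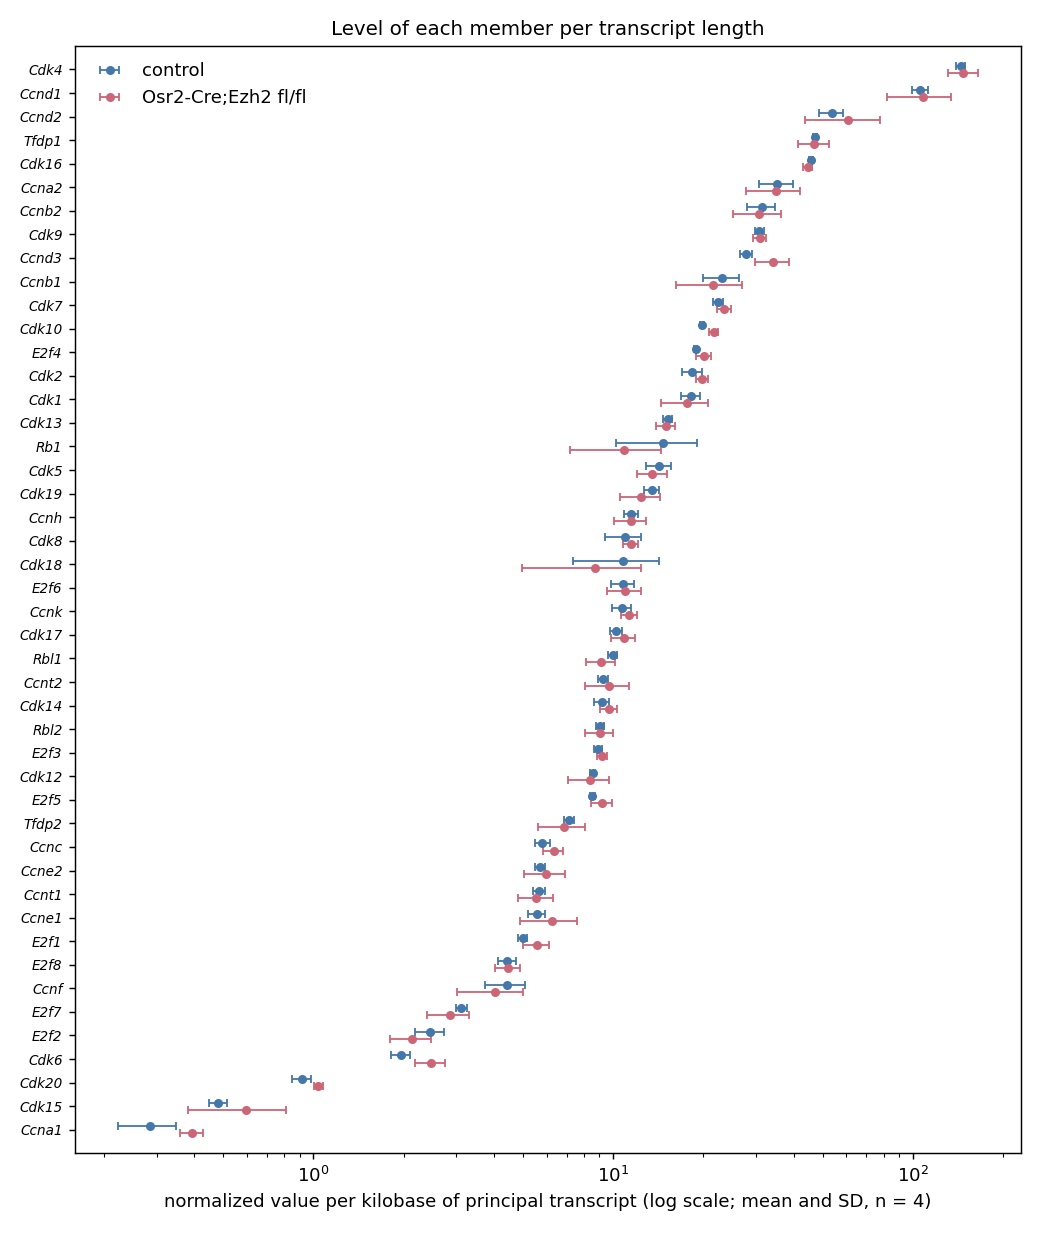
Normalized value per kilobase of principal transcript (horizontal log axis) of all 46 members, as the mean and SD of 4 control and 4 mutant libraries. *Cdk4* and *Ccnd1* lie above 100 in both groups, and *Ccna1*, *Cdk15* and *Cdk20* are the lowest.

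Other genes of the cell cycle were read from fixed lists, described by their counts. Of 8 genes of CDK inhibitors, 1 was called, *Cdkn2a*, which encodes p16Ink4a and p19Arf. *Cdkn2a* had values of 0.122, 0.148, 0.155 and 0.122 in control libraries, or 6 to 10 estimated reads, and of 1.501 to 2.23 in mutant libraries, or 98 to 172 reads. Every mutant library was far above every control library, with a log2 fold change of 1.34 (limma adjusted p = 0.000439) and a ratio of group means of 13.8, which an offset of 1 read carried by every deposited value lowers. The gene entered the test only through the mutant libraries, since no control value reached 1. The added 1 compresses the fold change at such low values, which ran from 0.42 with a pseudocount of 5 to 3.06 with a pseudocount of 0.1. *Cdkn1c*, encoding p57, was at 0.37 (unadjusted p = 0.0209, limma adjusted p = 0.254), and 7 of the 8 inhibitor genes were above 0 with a median of 0.14. *Cdkn1a*, the only inhibitor gene below 0, was at -0.34. The median was 0.21 without mutant library 3, with 6 above 0, and 0.096 without mutant library 4. The enamel covariate called 2 inhibitor genes higher (216 over all genes). Array weights called 4 higher and 1 lower (2165 and 1875 over all genes).

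None of the other lists held a called gene in limma's test, nor a gene with an unadjusted p under 0.05. Array weights called 2 regulators of CDK activity and 2 E2F target genes higher. Of the further cyclin and Cables genes they called 2 higher and 1 lower. Over all genes they called 2165 higher and 1875 lower. The 13 regulators of CDK activity (such as *Cdc25a*, *Wee1* and *Skp2*) had 7 above 0 and 6 below with a median of 0.029, which moved between -0.046 (5 above 0, without mutant library 1) and 0.066 (9 above 0, without mutant library 3) with each library left out and was -0.10 with the enamel covariate. The 7 DREAM and MuvB genes had 2 above and 5 below with a median of -0.012 (-0.052 to 0.023 with each library left out). The 17 E2F target genes (such as *Mcm2*, *Pcna* and *Mki67*) had 5 above and 12 below with a median of -0.025, and without mutant library 3 they had 15 above and 2 below with a median of 0.084. They had 2 above and 15 below with a median of -0.12 without mutant library 4, and 3 above and 14 below with a median of -0.10 with the enamel covariate. *Mki67*, a marker of cycling cells, had values of 432, 377, 378 and 289 in control and 287, 385, 230 and 390 in mutant libraries. Mutant library 3 was again the lowest of all 8, and the groups overlapped (log2 fold change -0.21, limma adjusted p = 0.746). The *Mki67* fold change was -0.06 without mutant library 3 and -0.43 with the enamel covariate (unadjusted p = 0.00640, limma adjusted p = 0.135). Of 12 further cyclin and Cables genes, 11 were tested, with 9 above 0, 2 below and a median of 0.048 (0.023 to 0.079 with each library left out).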

How the data were processed

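RNA-seq values of 8 molar mesenchyme libraries, 4 per genotype, were analysed without pairing, and each column was assigned by its match to a sample title. The paper's methods speak of 3 sample pairs but of n = 4 a group, without saying which libraries would form a pair. They name TopHat and RPKM, and the submitters' processing notes list CASAVA 1.8.2, Partek, STAR 2.5.3a and mm10. The authors' deposited values were treated as a signal: they carry no gene-length factor, and 61.2% of low values are whole multiples (tolerance 0.01) of the library's smallest value, so no test for counts was run. That smallest value was taken as the worth of 1 read and as an offset added to every gene, so that estimated reads are the value divided by it, minus 1. These estimates (48.3 M to 68.8 M per library) rest on that assumption and may carry error beyond counting error. Columns of per-sample values other than these 8 numbered 0.

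Genotypes were compared on log2(value + 1) with limma 3.58.1 (R 4.3.3, mean-variance trend), without a replicate block, and single genes with two-sided exact permutation tests. The model was tested on simulated data. Gene models were those of GENCODE mouse release M21, in which all 46 members were found by name, and 44 had the same start. Another gene overlapped 27 members on the opposite strand and 10 on the same strand. Lengths, promoters and plots were handled in Python 3.11.15 with pandas 2.3.3 and matplotlib 3.10.9.

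The members and lists were chosen with earlier results of these data known. Members were given with 8 values if called, if their unadjusted p was under 0.05, or if they define a cell cycle step, and the others by range. *Ezh2*, *Cdkn2a*, *Mki67* and called genes of the other lists were also named. Alternatives were pseudocounts of 0.1 and 5, no filter, a filter at a value of 10, median-of-ratios and quantile scaling, no trend, array weights, the replicate block, enamel and *Xist* covariates, and each library left out in turn. The signs and medians of lists under these settings were added after the data were seen.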

Additional observations from a re-analysis of the deposited data

Results flagged for a closer look

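Among 98 groups of 4 libraries (the members, *Ezh2*, *Cdkn2a* and *Mki67* in each genotype), 3 had a library that stood apart from the other 3 by Dixon's test at the 95% level, where chance would give about 1 in 20 groups, or 4.9. *Ccne1*, a cyclin E gene, was at 10.002 in control library 4, below 11.4 to 11.6 in the other control libraries. *Ccnk*, the cyclin of Cdk12 and Cdk13, was at 33.0 in control library 1, above 28.6 to 29.1 in the others. *Ezh2* was at 55.0 in control library 1, above 38.3 to 39.6 in the others. Mutant library 3, without which the mitotic members changed sign, was flagged in 0 of these groups.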

How the results depend on the processing

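Of 19 alternative settings, 17 left 0 members called. Array weights, which gave mutant library 4 a weight of 9.66, called 7 members higher and 4 lower, with 2165 higher and 1875 lower over all genes, and leaving out mutant library 3 called 1 (*Ccnd3*), so that leaving out each library gave 0 to 1 members higher and 0 to 0 lower. Over all genes the counts were 232 higher and 76 lower, 88 and 31 with the filter at 10, and 108 to 332 and 21 to 97 with each library left out. Deviations from the group means correlated at -0.342, -0.0769, 0.215 and -0.434 between libraries of the same replicate number. Libraries of different numbers were not compared in this way, so these values cannot decide whether the numbers pair the libraries. With the replicate block 64 genes were higher and 9 lower, with 0 members called and a limma adjusted p of 0.347 for *Cdk6*. For *Ezh2* and the 23 members given with 8 values, 456 comparisons with the main value were made, of which 448 kept their side of the threshold, 8 passed it only in the alternative and 0 reversed. The 8 were *Ccnd2*, *Ccnd3*, *Ccne1*, *Cdk2*, *E2f4* and *Rb1* with array weights, *Ccnd3* without mutant library 3, and *Ezh2* with the enamel covariate (log2 fold change -0.64, adjusted p = 0.0274). Array weights also called *Ccnc*, *Ccnk*, *Cdk18*, *Cdk19* and *E2f2*. They brought the log2 fold change of *Ezh2* to -0.19 (limma adjusted p = 0.135). A further 40 sign changes fell in 16 genes that were called in neither fit. With array weights, as without mutant library 3, 0 of the 4 mitotic members were below 0, and of the 15 mitotic genes 0 and 3. All genes above 0 made up 47.3% with median-of-ratios and 49.1% with quantile scaling, and the mitotic members kept 4 of 4 below 0 in both. The causes of these shifts were not tested.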
